A study of Mus musculus with 9 samples.

Results

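Proximal tubule genes were followed in RNA of isolated glomeruli, a preparation meant to hold the filtering tufts of the kidney and not its tubules. The members were chosen by name, as genes that mark the proximal tubule, with earlier results of these data known. All 35 had a probe on the array (52 probes in all) and all 35 passed the filter on dim signals, among 23944 features tested. Of these, 29 were well above background on each of the 9 arrays, and 3 (Slc22a7, Slc22a12 and Slc7a13) passed the filter through the wild-type group alone. The arrays came from 9 samples in 3 groups of 3. The first was BTBR wild-type mice given vehicle, the next BTBR ob/ob mice given vehicle, and the last BTBR ob/ob mice given enarodustat. All were male and 22 weeks old, and vehicle or drug had been in the food for 18 weeks. The ob/ob mutation removes leptin, and on the BTBR background it gives obesity, type 2 diabetes and glomerular disease. Enarodustat blocks prolyl hydroxylase enzymes, which keeps hypoxia-inducible factor from being broken down. The tissue was taken with magnetic beads that lodge in glomerular capillaries, and the labels do not say whether a sample is 1 mouse or a pool. The p-values therefore measure the spread between these samples, and 3 arrays a group limit the precision of every value.

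The proximal tubule takes back most of what the glomerulus filters. Its cells pull filtered proteins in through the endocytic receptors megalin and cubilin, and carry glucose, phosphate, amino acids and bicarbonate across a dense brush border covered with peptidases. They also secrete organic anions and cations from the blood and make glucose, under the control of transcription factors such as HNF1 and HNF4A. The early segments do most of the sodium-coupled uptake, while the late straight segment carries a different set of transporters, several of which depend on sex hormones in the mouse.

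The glomerular identity of the preparation was carried by its markers. The 22 podocyte genes had a median between 3.12 and 4.63 on the 9 arrays and the 15 endothelial genes between 5.48 and 5.92. Here and below, a level is the log2 signal of a probe minus the log2 of its array's 75th percentile, and that percentile ranged from 210.5 to 325.4 signal units. The percentile was lowest on wild-type array 3 (210.5) and next lowest on enarodustat array 2 (229.7). A value of 0 equals that percentile, and a difference of 1 is a doubling. Between 62.3% and 68.3% of the probes of an array were well above background, and no spot was saturated.

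The level of the 35 genes set 3 arrays apart, 1 in each group. Their median was -0.02, -0.48 and 2.41 on wild-type arrays 1 to 3. It was -0.80, -0.38 and -2.49 on the ob/ob vehicle arrays, and -0.87, 1.66 and -0.78 on the enarodustat arrays. The medians of all features lay between -0.36 and -0.27. Wild-type array 3 and enarodustat array 2 were thus high, ob/ob vehicle array 3 was low, and the other 6 arrays, which come from all 3 groups, lay between -0.87 and -0.02. In bulk RNA, fewer proximal tubule cells and less RNA of these genes per cell cannot be told apart.

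**Figure D1:**
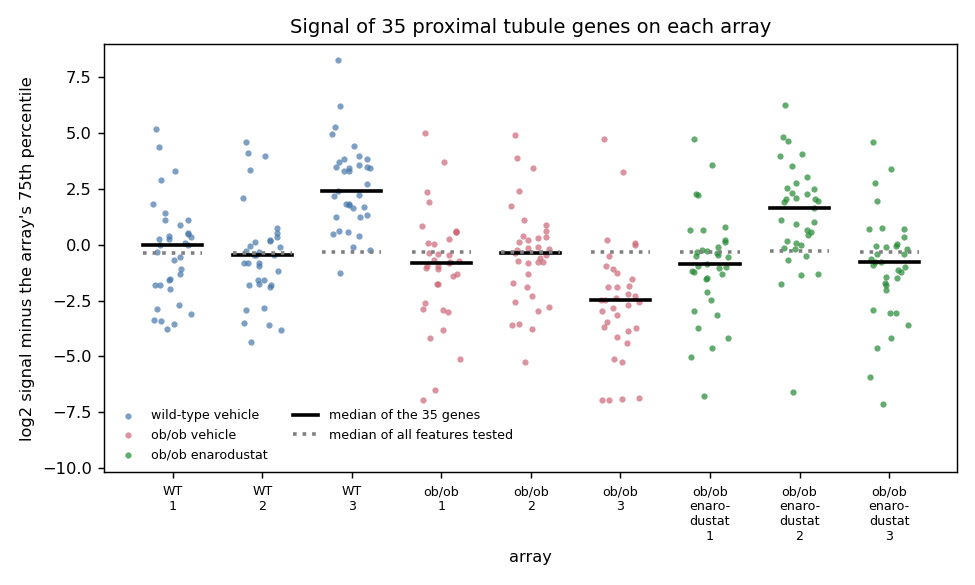
Each point is 1 of the 35 proximal tubule genes on 1 array, as log2 signal minus the 75th percentile of the array; the black line is the median of the 35 genes and the dotted line the median of all features tested. The genes lie high on wild-type array 3 (median 2.41) and enarodustat array 2 (1.66) and low on ob/ob vehicle array 3 (-2.49), while the median of all features barely moves.

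The same arrays were high or low for nearly every member. Wild-type array 3 was the highest of the 9 for 34 of the 35 genes, where it was the highest for 16.8% of all features. The exception was Slc6a19, the main transporter of neutral amino acids, which was highest on enarodustat array 2. That array was the next highest for 31 of the members. Wild-type array 3 and enarodustat array 2 were together the top of the order for 32 of 35 members and for 1584 of 23944 features (6.62%). At the other end, ob/ob vehicle array 3 was the lowest for 30 of the 35 members and for 7.82% of all features. The exceptions at the low end were Slc22a7, Slc7a13, Cyp4b1, Dpep1 and Napsa. Wild-type array 3 was also the lowest of the 9 for 27.8% of all features, the largest such share, and enarodustat array 2 for 13.9%. Wild-type array 3 thus stood apart beyond the members too.

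The spread within a group was correspondingly wide. The SD of a member over the 3 wild-type arrays had a median of 1.90, where the median of all features was 0.21 and 0.585% of them exceeded 1.90. In the ob/ob vehicle group it was 1.25 against 0.16, and in the enarodustat group 1.53 against 0.19. A wild-type SD above 1 was found in 32 of 35 members and in 3.3% of all features. From the lowest to the highest array, a member covered a median of 5.93 log2 units and a feature in general 0.76. The narrowest range among the members was that of Cyp4b1 (0.68) and the widest that of Kap (9.27).

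**Figure D2:**
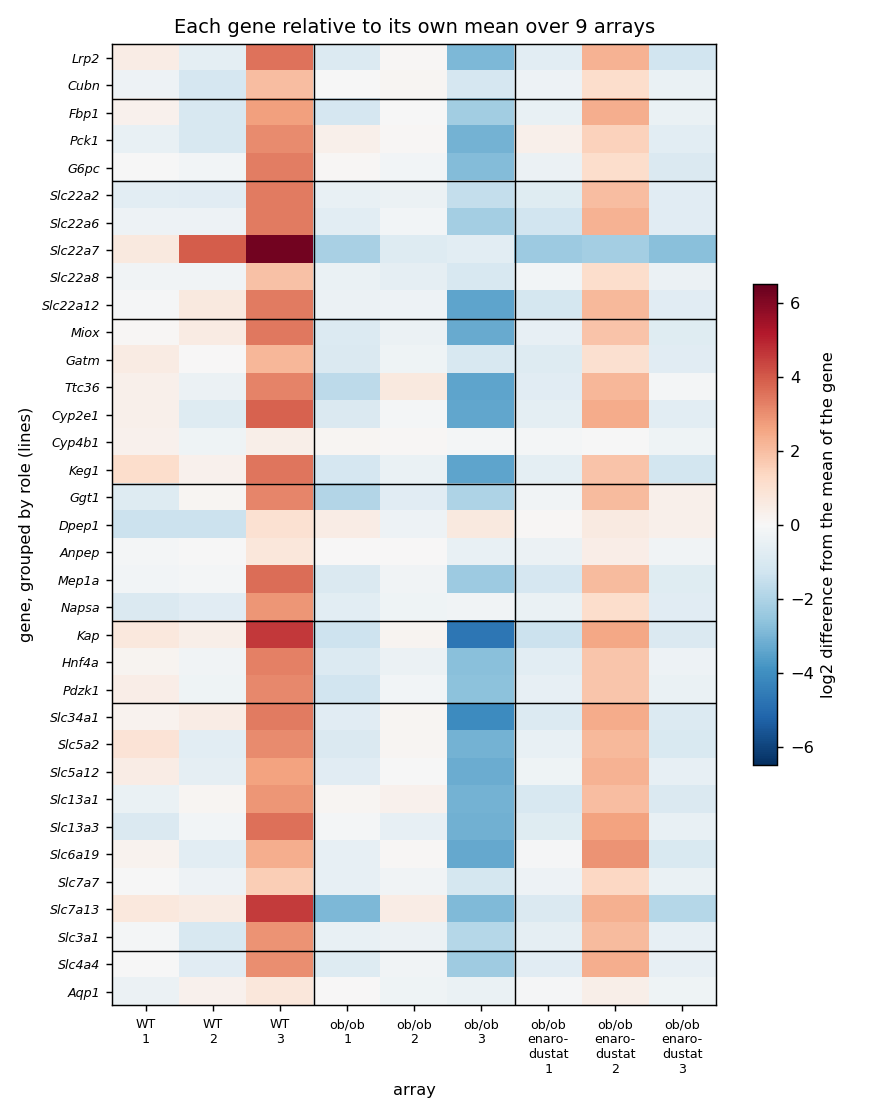
Rows are the 35 genes grouped by role (black lines), columns are the 9 arrays, and the colour is the log2 difference of a gene from its own mean over the arrays (red higher, blue lower). The columns of wild-type array 3 and enarodustat array 2 are red and that of ob/ob vehicle array 3 is blue for most genes; Cyp4b1, Aqp1 and Anpep stay pale, and Slc22a7 is high on wild-type arrays 2 and 3 but not on enarodustat array 2.

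The promoters of the members were searched for the letters that HNF1 and HNF4A recognise, in the 250 bases before the annotated start of each gene on both strands. Such a window was at hand in the RefSeq table of GRCm38.p6 for 28 of the 35 members and for 27025 promoters in all. The HNF1 core letters GTTAAT stood in 6 of 28 member windows (21.4%) and in 6.52% of all windows: those of G6pc, Miox, Pck1, Slc22a6, Slc22a8 and Slc34a1. The HNF4A letters CAAAGNNCA stood in 7 of 28 (25.0%) and in 5.47% of all, namely those of Aqp1, Cubn, Cyp4b1, G6pc, Lrp2, Slc13a3 and Slc3a1. Only G6pc held both, and 16 of the 28 windows held neither. The windows of Kap and Hnf4a are among those without a match. Whether a match goes with the shared array pattern was not tested. The TATA letters TATAAA, searched for comparison, stood in 5 of 28 (17.9%) and in 13.0% of all. A match is a run of letters and not a shown binding site.

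The windows of 4 members with a match are printed to show where the letters stand, with that of Dpep1 as 1 of the 16 without a match. All are on the plus strand of GRCm38.p6, at chr13:55399398-55399647 for Slc34a1, chr19:8592932-8593181 for Slc22a8, chr11:101367466-101367715 for G6pc, chr17:85028097-85028346 for Slc3a1 and chr8:123185985-123186234 for Dpep1. They read 5′ to 3′ and end at the base before the annotated start. Capitals mark GTTAAT or CAAAGNNCA on either strand.
Slc34a1 promoter: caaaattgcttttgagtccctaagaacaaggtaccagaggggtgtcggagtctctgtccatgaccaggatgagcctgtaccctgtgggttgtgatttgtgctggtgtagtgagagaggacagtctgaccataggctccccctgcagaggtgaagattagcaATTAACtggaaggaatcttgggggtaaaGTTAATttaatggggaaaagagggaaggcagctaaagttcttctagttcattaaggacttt
Slc22a8 promoter: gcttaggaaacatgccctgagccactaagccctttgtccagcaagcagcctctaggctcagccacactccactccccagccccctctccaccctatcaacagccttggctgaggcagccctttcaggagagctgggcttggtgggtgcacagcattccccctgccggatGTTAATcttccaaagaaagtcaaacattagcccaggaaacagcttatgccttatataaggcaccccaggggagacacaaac
G6pc promoter: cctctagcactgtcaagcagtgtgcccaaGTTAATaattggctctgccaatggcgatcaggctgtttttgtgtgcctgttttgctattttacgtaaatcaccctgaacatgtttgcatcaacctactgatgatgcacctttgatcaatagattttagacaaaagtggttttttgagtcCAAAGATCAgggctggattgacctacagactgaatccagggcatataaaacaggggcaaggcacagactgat
Slc3a1 promoter: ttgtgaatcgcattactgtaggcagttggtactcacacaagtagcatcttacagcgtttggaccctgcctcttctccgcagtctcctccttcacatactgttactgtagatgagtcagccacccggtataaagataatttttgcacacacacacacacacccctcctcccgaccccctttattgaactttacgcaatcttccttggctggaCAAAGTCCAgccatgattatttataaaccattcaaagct
Dpep1 promoter: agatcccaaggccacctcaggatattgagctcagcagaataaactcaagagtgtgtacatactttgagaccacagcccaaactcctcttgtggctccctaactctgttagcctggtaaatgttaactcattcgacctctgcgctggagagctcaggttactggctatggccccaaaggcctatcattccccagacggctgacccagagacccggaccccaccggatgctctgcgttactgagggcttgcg

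Glomeruli of ob/ob mice given vehicle had lower values than wild type for 34 of the 35 genes, but the test called 1 of them. The median difference of the members was -2.02 (up to 0.85 for Dpep1), where the median of all features was 0.02 and 47.7% of them were below 0. The call was Slc22a7, in limma with Benjamini-Hochberg adjustment over all features at 0.05. Of all features, 7.63% were called, 2.67% lower and 4.96% higher. At an unadjusted limma p under 0.05 there were 8 members (Slc22a7, Slc7a13, Kap, Miox, Gatm, Ggt1, Keg1 and Pdzk1), and 23.6% of all features. The groups did not overlap, with ob/ob lower, for 11 members (12.9% of all features): Slc34a1, Slc22a7, Slc22a8, Slc22a12, Slc7a13, Kap, Miox, Gatm, Mep1a, Hnf4a and Keg1. Of these, Slc22a7, Slc22a12 and Slc7a13 passed the filter through wild type alone. No member was higher in ob/ob without overlap, which 17.9% of all features were. The median standard error of a member was 1.12 log2 units against 0.17 for all features. Leaving out wild-type array 3 moved the median difference from -2.02 to -1.02, and leaving out ob/ob vehicle array 3 moved it to -1.28.

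**Figure D3:**
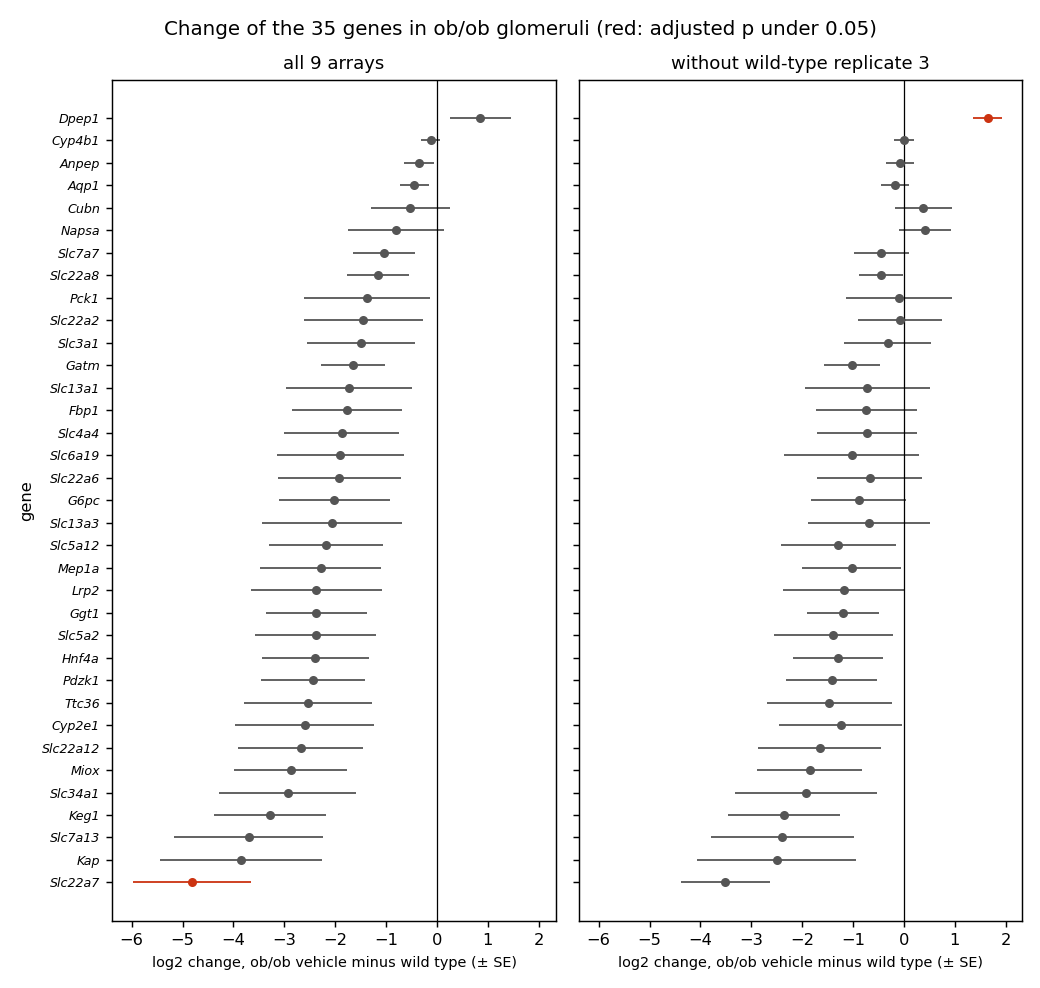
Log2 difference between ob/ob vehicle and wild-type vehicle for each of the 35 genes, with its standard error as a line, from all 9 arrays (left) and without wild-type array 3 (right); red marks an adjusted limma p under 0.05. With all arrays Slc22a7 is called at -4.82; without wild-type array 3 most values move toward 0, Slc22a7 is no longer called and Dpep1 is, at 1.65.

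Glomeruli of ob/ob mice given enarodustat had higher values than those given vehicle for 33 of the 35 genes, none of which passed the test. The median difference was 1.37 (up to 2.27 for Ggt1), where the median of all features was -0.03 and 55.3% of them were below 0. In limma 0 of the 23944 features were called (0.0%), and 1682 (7.02%) had an unadjusted p under 0.05, none of them a member. The lowest adjusted p of a member was 0.707, for Ggt1. The enarodustat arrays lay above the vehicle arrays without overlap for Slc22a8 and Ggt1 (6.52% of all features). Below without overlap, where 9.53% of all features were, stood Slc22a7 alone, whose values in both groups were not well above background and so have no order. Without enarodustat array 2 the median difference of the members was 0.41, and without ob/ob vehicle array 3 it was 0.60.

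Against wild type, the enarodustat group was lower for 34 members, with a median of -0.62, and Dpep1 was higher. Of all features, 50.6% were below 0. The call was again Slc22a7 (10.3% of all features called, 4.11% lower and 6.14% higher), which was also the member with an unadjusted limma p under 0.05 (26.9% of all features) and with groups that did not overlap (14.0% lower, 16.9% higher). The direction of the median rested on 1 array, since it was 0.29 without wild-type array 3. The comparisons share arrays, each group entering a pair of them.

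The endocytic receptors gave the shared pattern at different widths. Lrp2, which encodes megalin, was at 0.27, -0.81 and 3.31 on the wild-type arrays, at -1.08, -0.12 and -3.13 on the ob/ob vehicle arrays, and at -0.87, 2.08 and -1.44 on the enarodustat arrays. It had 4 probes that passed the filter, with ob/ob differences from -3.09 to -1.20. Cubn, which encodes cubilin, spanned 3.10 log2 units against 6.44 for Lrp2. The 3 groups overlapped for both genes.

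Among the carriers of glucose, phosphate, small anions and amino acids, the 9 members had a median ob/ob difference of -2.07 and none was called. Slc34a1, the sodium-phosphate cotransporter of the brush border, was at 1.83, 2.09 and 4.98 in wild type, at 0.86, 1.72 and -2.49 in ob/ob vehicle, and at 0.69, 3.99 and 0.72 with enarodustat. The means were 2.97 ± 1.75, 0.03 ± 2.22 and 1.80 ± 1.90 (SD, n = 3 each). Every ob/ob vehicle value lay below every wild-type value, but the difference of -2.94 (SE 1.35) did not pass limma (adjusted p = 0.233). Slc5a2, the glucose cotransporter targeted by the gliflozin drugs, was at 1.10, -0.45 and 3.33, then -0.70, 0.38 and -2.85, then -0.25, 2.33 and -0.77, with overlap between all groups. Slc3a1 encodes a subunit of a transporter of cystine and dibasic amino acids. It was at -2.69, -3.57 and 0.38 in wild type, at -3.02, -2.95 and -4.39 in ob/ob vehicle, and at -3.13, -0.49 and -3.06 with enarodustat. Without wild-type array 3 its ob/ob difference went from -1.49 to -0.32.

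Slc7a13, an amino acid transporter of the late straight segment, was not well above background on most ob/ob arrays. Its values were -3.37, -3.51 and 0.49 in wild type, -6.96, -3.59 and -6.93 in ob/ob vehicle, and -5.01, -1.75 and -5.92 with enarodustat. It was well above background on the 3 wild-type arrays and on 1 of 3 in each ob/ob group, and in ob/ob vehicle the values of arrays 1 and 3 were not. It passed the filter through wild type alone. The fitted ob/ob difference was -3.70 (SE 1.47), with a limma adjusted p of 0.172. Slc5a12, Slc13a1, Slc13a3, Slc6a19 and Slc7a7, which carry lactate, sulfate, dicarboxylates, neutral and basic amino acids, had ob/ob differences between -2.18 and -1.04, all with overlapping groups.

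The organic ion transporters held the member that departed most from the rest. Slc22a7, an organic anion transporter, was at -3.77, -0.48 and 1.82 on the wild-type arrays. It was at -6.51, -5.27 and -5.12 on the ob/ob vehicle arrays and at -6.77, -6.61 and -7.14 on the enarodustat arrays. It was well above background on the 3 wild-type arrays and on none of the other 6, so the differences have a bound only. Its probe lies at chr17:46569272-46569331 in the mm9 coordinates of the array files. The group means were -0.81 ± 2.81, -5.63 ± 0.77 and -6.84 ± 0.27 (SD, n = 3 each).

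For ob/ob vehicle against wild type, the fitted Slc22a7 difference was -4.82 (SE 1.16, limma adjusted p = 0.0418). With the dim arrays set at their bound, the group means lay 18.7-fold apart. For enarodustat against wild type the fitted difference was -6.03 (limma adjusted p = 0.0155), and the means at the bound lay 16.0-fold apart. These bounds set the wild-type mean against the mean, over the dim arrays, of the higher of the gene's own signal and the lowest signal among probes well above background. They leave out the spread of the wild-type arrays (SD 2.81), so they are not a smallest difference between the groups. Slc22a7 passed the filter only through the group where it is high. The ob/ob call was near the threshold. It was lost on leaving out any array but wild-type array 1, with differences from -6.31 to -3.51 and adjusted p from 0.00623 to 0.13. The enarodustat call was lost without wild-type array 2 (adjusted p = 0.055) or enarodustat array 3 (adjusted p = 0.0535). With normexp background correction (offset 50) followed by quantile normalization, the differences were -2.09 and -2.17. Neither was called in limma (adjusted p = 0.13 and 0.0974). The part of each step in this change was not tested.

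On enarodustat array 2, where nearly all other members were high, Slc22a7 was not well above background either. Relative to the median of the other 34 genes on the same array, it was at -3.77, 0.16 and -0.75 in wild type. On the 6 ob/ob arrays its own value is only a bound, so that a relative value there would carry the level of the others. With the proximal tubule median of each array as a covariate, its difference was -3.83 in ob/ob vehicle (limma adjusted p = 0.204) and -5.69 with enarodustat (adjusted p = 0.0216). These rest on the same values below background. In that fit 2.98% and 9.58% of all features were called.

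The other organic ion transporters followed the shared pattern. Slc22a2, a cation transporter, was at -2.86, -2.91 and 1.24, then -2.62, -2.55 and -3.70, then -2.94, -0.14 and -2.91. Outside wild-type array 3 and enarodustat array 2 it stayed between -3.70 and -2.55 in all groups, and its ob/ob difference went from -1.45 to -0.07 without wild-type array 3. Slc22a8, an anion transporter, was at -1.58, -1.56 and 0.56 in wild type, at -1.75, -1.91 and -2.39 in ob/ob vehicle, and at -1.53, -0.18 and -1.69 with enarodustat. The ob/ob vehicle values lay below those of both other groups, though the nearest values, -1.75 and -1.69, were close. Slc22a6, an anion transporter, and Slc22a12, the urate exchanger, had ob/ob differences of -1.92 and -2.68 (limma adjusted p = 0.384 and 0.231).

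The carriers of bicarbonate and water differed from each other. Slc4a4, the sodium-bicarbonate cotransporter, was at 0.40, -0.33 and 3.45, then -0.41, 0.21 and -1.87, then -0.28, 2.79 and -0.09. Aqp1, a water channel that endothelial cells and red cells also make, was at 3.30, 3.97 and 4.43, then 3.70, 3.43 and 3.25, then 3.58, 4.08 and 3.41. Its range of 1.18 was narrow for a member, and its ob/ob difference was -0.44 (SE 0.29, limma adjusted p = 0.407).

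The enzymes of glucose synthesis were each highest on wild-type array 3 and lowest on ob/ob vehicle array 3. Fbp1, fructose bisphosphatase, was at 1.42, 0.11 and 3.84 in wild type, at 0.05, 1.11 and -1.08 in ob/ob vehicle, and at 0.67, 3.54 and 0.73 with enarodustat. Pck1 and G6pc, which begin and end the pathway, had ob/ob differences of -1.38 and -2.02. None of the 3 was called.

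The other metabolic enzymes held the steadiest member and one of the least steady. Cyp4b1, a monooxygenase, was at 5.18, 4.59 and 5.27 in wild type, at 5.01, 4.93 and 4.73 in ob/ob vehicle, and at 4.75, 4.83 and 4.60 with enarodustat. It was well above background on all arrays and did not follow the shared pattern, with an ob/ob difference of -0.12 (SE 0.19, limma adjusted p = 0.737) that was 0.00 without wild-type array 3. Miox, which breaks down myo-inositol, was at 2.90, 3.35 and 6.21, then 1.90, 2.43 and -0.50, then 2.25, 4.66 and 1.99. Its groups did not overlap between wild type and ob/ob vehicle (-2.88, SE 1.11, limma adjusted p = 0.161).

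Keg1, an enzyme of the glycine acyltransferase family named here after its values were seen, came closest to the threshold after Slc22a7. It was at -0.68, -1.59 and 1.63 in wild type, at -2.94, -2.29 and -5.26 in ob/ob vehicle, and at -2.47, 0.00 and -3.04 with enarodustat. The ob/ob difference was -3.28 (SE 1.11, limma adjusted p = 0.116). Relative to the other members it was between -1.11 and -0.68 on the wild-type arrays, between -2.77 and -1.97 on the ob/ob vehicle arrays and between -2.27 and -1.77 on the enarodustat arrays. The wild-type arrays thus lay above all 6 others on this scale. With the proximal tubule median as a covariate, the ob/ob difference was -1.14 (limma adjusted p = 0.0796). The value of ob/ob vehicle array 3 was not well above background. Gatm, which makes a precursor of creatine, Cyp2e1 and Ttc36 had ob/ob differences of -1.65, -2.60 and -2.54, none called.

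The peptidases of the brush border did not move as a block. Dpep1, a dipeptidase, was at -1.80, -1.80 and 0.61 in wild type, at 0.07, -0.73 and 0.21 in ob/ob vehicle, and at -0.32, 0.16 and -0.05 with enarodustat. It was the member with an ob/ob difference above 0 (0.85, SE 0.60, limma adjusted p = 0.439). The 6 ob/ob arrays all lay above wild-type arrays 1 and 2 and below wild-type array 3. Without wild-type array 3, Dpep1 passed limma in both comparisons with wild type, at 1.65 for vehicle (adjusted p = 0.022) and 1.73 for enarodustat (adjusted p = 0.0171). In that fit 4.95% and 7.98% of all features were called. Relative to the other members Dpep1 was at -1.80, -1.32 and -1.96 in wild type and at 0.95, -0.41 and 2.75 in ob/ob vehicle, without overlap. That scale rises where the other members are low, and 39.5% of all features were higher on it in ob/ob vehicle without overlap. On the enarodustat arrays the relative value of Dpep1 was 0.60, -1.63 and 0.80. Its probe lies at chr8:125724996-125725055 in mm9.

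Anpep, an aminopeptidase, was at 0.47, 0.54 and 1.33, then 0.58, 0.61 and 0.08, then 0.20, 1.02 and 0.35, a range of 1.25. Ggt1, which cleaves glutathione, was at -1.82, -0.82 and 2.21 in wild type, at -2.89, -1.69 and -2.96 in ob/ob vehicle, and at -1.18, 1.10 and -0.64 with enarodustat. Every enarodustat array lay above every ob/ob vehicle array, by 2.27 on average (SE 1.00, limma adjusted p = 0.707). Napsa, an aspartic peptidase, was high on wild-type array 3 (1.82) and enarodustat array 2 (0.09), and between -1.97 and -1.26 elsewhere. On ob/ob vehicle array 3 it stood at -1.26 and so was not low there. Mep1a, a subunit of the protease meprin, had an ob/ob difference of -2.29. Ggt1 and Napsa were named after their values were seen.

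The regulator and scaffold of the group moved with the transporters. Hnf4a, the nuclear receptor named above as a regulator of these cells and picked out after its values were seen, was at 0.34, -0.08 and 3.42 in wild type, at -0.72, -0.21 and -2.57 in ob/ob vehicle, and at -0.53, 1.96 and -0.17 with enarodustat. Its ob/ob difference was -2.39 (SE 1.05, limma adjusted p = 0.212). Pdzk1, which anchors transporters in the brush border, had a difference of -2.44.

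Kap, the kidney androgen-regulated protein, had the widest range of the list (9.27). It was at 4.40, 4.12 and 8.30 in wild type, at 2.36, 3.88 and -0.97 in ob/ob vehicle, and at 2.29, 6.24 and 2.79 with enarodustat. The means were 5.61 ± 2.34, 1.76 ± 2.48 and 3.78 ± 2.15 (SD, n = 3 each). The ob/ob vehicle arrays lay below the wild-type arrays, with a difference of -3.85 (SE 1.59, limma adjusted p = 0.19). Relative to the other members Kap was at 4.57, 4.75 and 5.98 in wild type and at 3.24, 4.30 and 1.56 in ob/ob vehicle, without overlap. On the enarodustat arrays it was at 3.21, 4.86 and 3.64. With the proximal tubule median as a covariate the ob/ob difference was -0.77 (limma adjusted p = 0.452), against -3.85 without it.

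**Figure D4:**
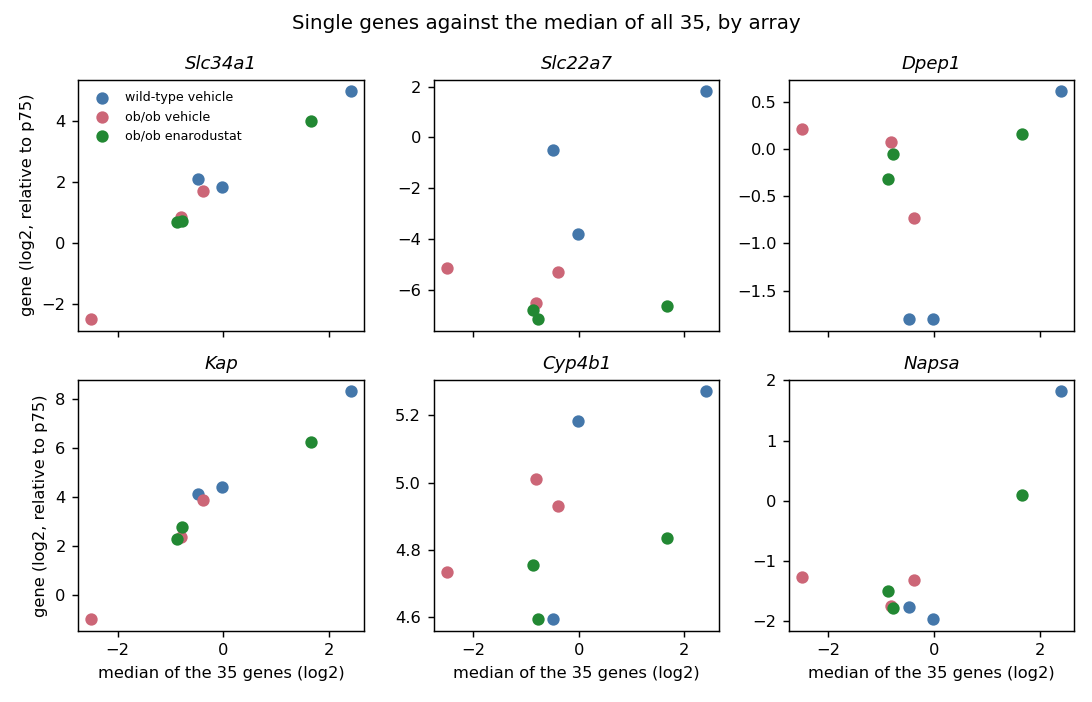
Each panel sets the log2 signal of 1 gene against the median of the 35 genes on the same array, with 1 point per array coloured by group; the vertical scales differ. Slc34a1 and Kap run along the median, Slc22a7 stays low on all ob/ob arrays, Cyp4b1 spans 0.68 log2 units in all, and the ob/ob arrays of Dpep1 lie above wild-type arrays 1 and 2.

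Taken against the level of the other members on the same array, 5 genes were lower in ob/ob vehicle than in wild type without overlap (Kap, Miox, Hnf4a, Keg1 and Pdzk1) and Cubn and Dpep1 were higher. This scale moves with the members' own level: of all features, 0.0919% were lower and 39.5% higher on it. A feature without the shared pattern takes on the reverse of that level here. The shares of all features, here and below, are therefore not a rate to set the members against. Between enarodustat and vehicle, Fbp1, Hnf4a and Pdzk1 were higher (0.0418% of all features) and Cubn lower (2.79%). Between enarodustat and wild type, Keg1 was lower (0.146% of all features, and 1.65% higher). Slc22a7 in both of these comparisons and Slc7a13 in the last also counted as lower, with ob/ob values that were mostly not well above background.

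These relative differences depended on how the shared level was taken out. With that level as a covariate, which estimates a slope for each gene, the ob/ob differences were -0.75 for Miox, -0.47 for Pdzk1, -0.34 for Hnf4a and 0.95 for Cubn, and none passed limma (adjusted p from 0.149 to 0.507). With the 7 early-segment members as the reference level, Kap, Miox, Hnf4a and Keg1 stayed lower and Cubn and Dpep1 higher in ob/ob vehicle, and Pdzk1 overlapped. Between enarodustat and vehicle, Cubn, Fbp1, Hnf4a and Pdzk1 then overlapped. Keg1 stayed lower with enarodustat than in wild type.

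Members with several probes gave the same direction from each. In 10 genes more than 1 probe passed the filter, and the signs of the probes did not differ in any comparison. Their sizes did, as for Slc13a1 with ob/ob differences from -1.73 to -0.55. The other 25 members had 1 such probe.

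Most proximal tubule genes outside the 35 showed the same arrays. This list too was chosen with earlier results of these data known. Of 60 such genes 55 were tested, and 45 were highest on wild-type array 3, 45 had wild-type array 3 and enarodustat array 2 on top, and 37 were lowest on ob/ob vehicle array 3. On ob/ob vehicle array 3, 39 of the 55 were well above background. Their ob/ob median difference was -1.43, with 52 of 55 below 0, 1 called lower and 1 called higher. Enpep is also in the podocyte list. Xpnpep2, an aminopeptidase, fell by 1.14 on the log2 scale (limma adjusted p = 0.00761), and Abcc4, an efflux pump, rose by 0.82 (adjusted p = 0.0149). Neither of these genes gave the shared array pattern. Xpnpep2 was at -0.97, -1.16 and -1.04 in wild type and at -2.27 on enarodustat array 2. Abcc4 was highest on ob/ob vehicle array 3 (0.88). The 7 early-segment members were all lowest on ob/ob vehicle array 3. Of 6 late-segment genes, Slc22a7 and Slc7a13 among them, 0 were lowest on that array, where 3 were well above background. Values that are not well above background have no order among themselves, which limits these counts in every list. Of 12 genes known to be higher in male kidney, Kap and Slc7a13 among them, 11 were highest on wild-type array 3. On ob/ob vehicle array 3, 4 were lowest and 8 were well above background. The ob/ob difference was below 0 for 11. Gusb was the exception and rose by 0.66 (limma adjusted p = 0.0102).

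Markers of other cells on the same arrays were not all level. Their sums below are of linear signals in units of the 75th percentile of each array. The 35 members summed to 90.2 to 668 in wild type, 44.8 to 86.2 in ob/ob vehicle and 64.0 to 252 with enarodustat. Such a sum is carried by the brightest genes and is not a level of the whole list. On wild-type array 3 the brightest member was Kap (log2 level 8.30). On ob/ob vehicle array 3 the brightest were Cyp4b1 (4.73) and Aqp1 (3.25), whose ranges were narrow. The 22 podocyte genes summed to 1330 to 1440 in wild type, 912 to 1140 in ob/ob vehicle and 764 to 986 with enarodustat. In limma 10 of them fell in ob/ob vehicle and 15 with enarodustat against wild type, 0 rose, and all 22 estimates were below 0 in both. Their sum on wild-type array 3 (1440) was close to those of the other wild-type arrays, while enarodustat array 2 had the lowest (764). The 15 endothelial genes summed to 752 to 939 on all arrays.

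The loop of Henle moved partly with the members. Its 7 genes summed to 31.1, 40.6 and 144 on the wild-type arrays, to 13.4, 45.6 and 45.7 in ob/ob vehicle, and to 91.5, 173 and 126 with enarodustat, and 5 of 7 had wild-type array 3 and enarodustat array 2 on top. Egf fell by 1.26 in ob/ob vehicle (limma adjusted p = 0.0116). The 14 distal tubule and collecting duct genes summed to 3.12 to 27.1 in wild type, 3.42 to 27.7 in ob/ob vehicle and 46.4 to 86.3 with enarodustat. Of these, 2 had wild-type array 3 and enarodustat array 2 on top. By this sum the distal list was high on all 3 enarodustat arrays, where the members were high on 1. Its median was -0.20, 1.00 and -0.72 on those arrays, -0.08 on wild-type array 3 and -0.90 on ob/ob vehicle array 3. Against wild type, 1 of the 14 genes was called with enarodustat, where 10.3% of all features were.

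The 11 mesangial genes summed to 265 on wild-type array 3 and 432 to 445 on the other wild-type arrays, and to 559 to 707 in ob/ob mice. The 14 macrophage genes summed to 19.7 on wild-type array 3, 31.2 on each of the others, and 47.3 to 83.5 in ob/ob mice, and 9 of them rose in ob/ob vehicle. The 9 tubule injury genes summed to 27.6 to 34.2 in wild type, 42.9 to 78.8 in ob/ob vehicle (the highest on array 3) and 54.7 to 82.8 with enarodustat (the highest on array 2). None of them was called, and Havcr1 and Krt20 did not pass the filter. The 10 parietal epithelium genes summed to 28.1 to 32.3 in wild type, 19.7 to 25.5 in ob/ob vehicle and 25.0 to 34.5 with enarodustat, and 2 of them (Krt7 and Ncam1) fell in ob/ob vehicle. The 6 erythrocyte genes summed to 7.26 to 31.0 in wild type, 25.3 to 62.2 in ob/ob vehicle and 45.5 to 238 with enarodustat. In limma 0 of them were called in ob/ob vehicle, and 4 rose with enarodustat against wild type. The part of these other cells in the values of the 35 genes was not tested.

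**Figure D5:**
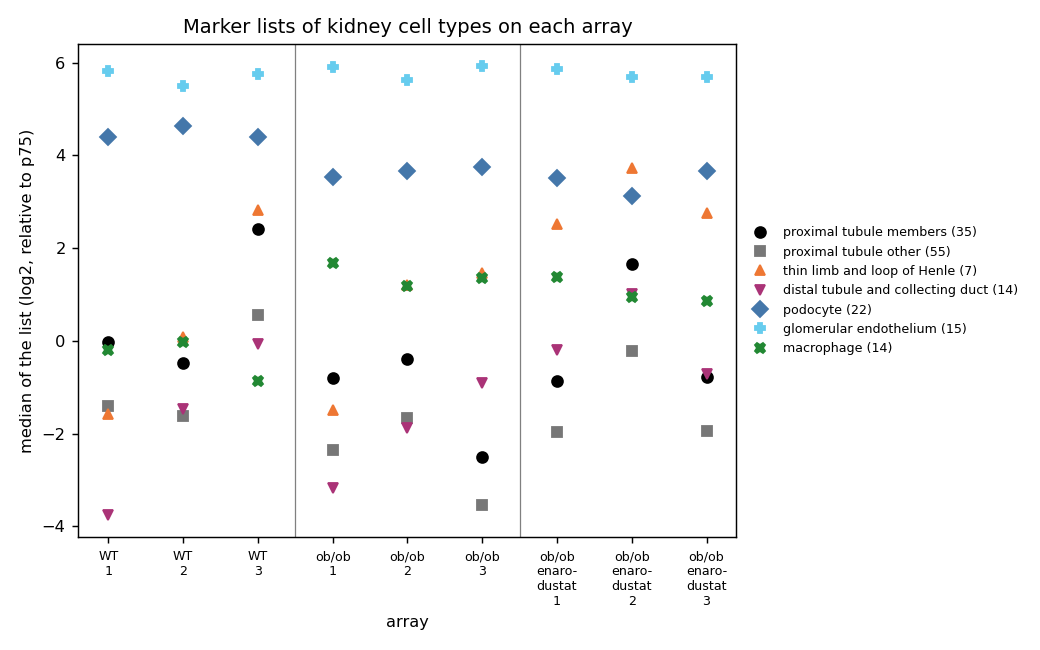
Points are the medians of 7 marker lists (number of genes in brackets) on each array, as log2 signal relative to the 75th percentile. The proximal tubule lists are highest on wild-type array 3 and enarodustat array 2; the podocyte and endothelial lists are not, and the loop list is high there and on the other enarodustat arrays.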

How the data were processed

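Glomerular RNA of 9 samples in 3 groups of 3 was measured on Agilent arrays with a single dye. Per the file headers, the deposited scanner files hold a background-subtracted linear intensity made with Agilent Feature Extraction 11.5.1.1. limma is also named in the submitters' processing notes. The deposited value table holds log2 values that matched the log2 processed signal minus the 75th percentile of each array, with column medians from -3.10 to -2.93; its scale and centring were found from the values and are not stated.

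Control and outlier spots were left out, and 32 probes with outlier spots only were dropped from 56605. Values are log2 intensity minus the 75th percentile of each array. A probe was kept when well above background on every array of a group, and a gene took its probe with the highest mean. Names came from the RefSeq table of GRCm38.p6 (32925 probes by accession, 10218 by symbol, 517 by synonym), and 12861 kept the file's name. Probe coordinates are those of mm9, per the file headers; which exon or UTR they lie in was not examined here.

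limma 3.58.1 in R 4.3.3 (lmFit, contrasts.fit, eBayes) was fitted to 23944 features over the 9 arrays, with Benjamini-Hochberg adjustment at 0.05, and tested on simulated data. Per-array values were tabulated with pandas 2.3.3 and drawn with matplotlib 3.10.9. A relative value is a gene minus the median of the other 34 members on that array. The labels do not tie replicate numbers together, and same-numbered samples did not deviate together (correlations from -0.31 to 0.27). The members and lists were chosen with earlier results of these data known. Values are given for members called in a comparison, the 6 brightest, the 3 dimmest detected on all arrays, and the 4 whose relative value differed most in each comparison. Other members were added after their values were seen, and of the other lists the called genes with the smallest p. The 20 settings tried were other normalizations, filters, probe rules, weights, blocks, a covariate and arrays left out.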

Additional observations from a re-analysis of the deposited data

How the results depend on the processing

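Each result was recomputed under 20 settings. Of 494 recomputed values for the 17 named members, 449 kept their direction and side of the threshold, 18 lost the call, 6 gained it and 21 changed sign, 8 of these with the covariate. The features called between ob/ob vehicle and wild type were 1826, and 1006 with no filter on dim probes, 4155 with array weights, 714 with the proximal tubule median as a covariate and 923 to 1776 with 1 array left out. Of the members 1 was called, and 0 with normexp, with no filter, with probes detected on all arrays, with the covariate and with the slide as a block (which equals leaving out enarodustat array 3, alone on its slide). Array weights gave 2 and leaving out 1 array 0 to 1. Probes detected on all arrays leave out Slc22a7 by construction. Under the covariate, which removes the members' shared level by construction, their median was 0.01, Fbp1 0.32, Slc3a1 0.56, Slc22a2 0.74, Anpep 0.19, Napsa 0.68 and Cyp4b1 0.10. Cyp4b1 was also 0.17 with array weights, 0.00 without wild-type array 3 and enarodustat array 2, and -0.33 to 0.00 with 1 array left out. Napsa was 0.14, 0.42 and -1.48 to 0.42 in the same settings.

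Between enarodustat and ob/ob vehicle, 0 features were called in every setting run, the members' median was -0.04 under the covariate, Dpep1 -0.35 and Anpep -0.26. Without wild-type array 3 and enarodustat array 2, Dpep1 was -0.04 and Anpep -0.15. With 1 array left out Dpep1 was -0.21 to 0.26 and Anpep -0.15 to 0.26, and Anpep was -0.02 with array weights. Between enarodustat and wild type, 2455 features were called, and 1236 with no filter, 4503 with array weights, 1290 without the same 2 arrays, 1369 with the slide block and 1222 to 2168 with 1 array left out. The 1 member called became 0 with normexp, with probes detected on all arrays and with the slide block, 2 with array weights and 0 to 2 with 1 array left out. The members' median was 0.01 with array weights and -1.49 to 0.29 with 1 array left out. With early-segment members as the reference, the genes without overlap went from 5 to 3 between enarodustat and vehicle and from 3 to 6 between enarodustat and wild type. Other than where stated, the cause of a change was not tested. With the replicate number as a block, a pairing the labels do not give, 1406, 0 and 1950 features and 1, 0 and 1 members were called in the 3 comparisons, and no call of a named member changed.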

Other observations

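Of the genes known to be higher in male kidney, 2 outside the 35 are given here, picked out after their values were seen for being high and low on the arrays where the members were. Of the 12 in that list, 11 were highest on wild-type array 3, but 4 were lowest on ob/ob vehicle array 3. Slc22a30, an organic anion transporter of the rodent kidney, was at 0.81, 1.91 and 3.78 in wild type, at -0.79, 0.43 and -4.58 in ob/ob vehicle, and at -2.01, 2.11 and -0.62 with enarodustat. Akr1c21, a hydroxysteroid dehydrogenase, was at -0.50, -0.52 and 2.42, then -2.19, -0.70 and -5.27, then -1.97, 1.07 and -1.67. Both lay lower in ob/ob vehicle than in wild type without overlap, as 12.9% of all features did. Since they were picked on values of these arrays, that share is no measure of how unusual they are. Neither passed limma (adjusted p = 0.156 and 0.189). Akr1c21 was well above background on 8 arrays and not on all, so its lowest value (-5.27) may be a bound only.

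The late-segment gene Acsm3, an acyl-CoA synthetase, was at -3.46, -3.39 and -0.28 in wild type, at -5.42, -4.46 and -4.89 in ob/ob vehicle, and at -5.63, -2.70 and -4.54 with enarodustat. It was higher on enarodustat array 2 than on the other ob/ob arrays. Acsm3 was well above background on 6 arrays only, all wild-type arrays among them. Some of its lower ob/ob values are thus bounds and have no order among themselves. Of the distal list, Pvalb, a calcium-binding protein of the distal convoluted tubule, was at 0.10, 0.55 and 2.94, then -0.08, 2.53 and 1.82, then 4.22, 4.93 and 4.56. It was higher with enarodustat than in wild type (3.37, limma adjusted p = 0.0369), and stood above all other arrays on each of the 3 enarodustat arrays.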
